A study of Drosophila melanogaster with 18 samples.

Results

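ChIPCRM5792 is 1 of the 12 mesodermal enhancers of Drosophila melanogaster that were taken apart motif by motif with quantitative enhancer-FACS-Seq (QeFS), a reporter assay in which the activity of each enhancer version is read from short sequence tags in the 3′ UTR of a shared reporter gene. The tags described here are all those whose construct name begins with ChIPCRM5792, 22 tags of 7 constructs out of 312 tags of 93 constructs in all. In these names WT is the wildtype enhancer, D is loss of all Deaf1 sites, 7 is loss of the ZIPIC (CG7928) sites and 1 is loss of the CG12236-PB sites, so that ChIPCRM5792-D71 is the triple site mutant. The full set has 8 versions, and the Deaf1 single site mutant was not analysed here.

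Activity was compared in twi:CD2+ and in mef2:CD2- cells. The twi:CD2+ cells are the whole mesoderm, sorted by rat CD2 expressed from the twi promoter, and were collected 3 times. The mef2:CD2- cells are all cells that lacked CD2 expressed from the Mef2 I-E D5 enhancer, that is, embryonic cells depleted of fusion-competent myoblasts (FCMs), and were collected 6 times, 3 in each of 2 weeks. The embryos of every collection were laid over 2.25 h and aged for 11 h at 18 °C. They came from a pool of flies with 1 enhancer reporter each, all integrated at the attP40 landing site. Each set of 3 collections came from its own population of parental flies, so that the 3 collections of a set are not independent crosses, and RNA and DNA of the same sorted cells were sequenced as separate libraries. Only reporter tags were sequenced, so the identity of the sorted cells could not be checked against marker genes, and fewer cells that use an enhancer and less reporter RNA per cell cannot be told apart.

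Enhancers are stretches of DNA that transcription factors bind at short motifs to raise or lower transcription of a gene. Deaf1 is a transcription factor that binds motifs with a TTCG core and is known as a cofactor of the homeotic protein Deformed. ZIPIC is a zinc-finger protein best known from insulators, the elements that keep neighbouring regulatory domains apart, while the role of CG12236-PB is less well studied. Mutating the motifs alone and together shows what each adds to an enhancer and whether one motif matters more when another is lost.

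The site mutants were compared with the wildtype enhancer over its first 385 bases, counted from 1 at the first base after the cloning site. Here the Deaf1 site mutants carry 6 single base substitutions, G26A, C40G, G50C, C261G, G293C and C353G. Each of them changes the G of a TCG triplet, 3 times on the written strand and 3 times on the other strand, out of 23 such triplets on either strand in these bases. Of the 6, 4 lie in the longer TTCG core, of which these bases hold 9. After G293C and C353G the changed base is again part of a TCG triplet on one strand or the other. The CG12236-PB site mutants carry T284C, which lies 9 bases from the nearest Deaf1 substitution. No ZIPIC substitution lies in these bases, and the rest of the enhancer was not analysed here. The letters before and after each number are the base of the wildtype enhancer and that of the mutant.

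The comparisons turn on few tags, which are synthetic runs of 19 or 20 bases with no place in the genome of their own. The tags of the 3 constructs behind the called differences, and the only wildtype tag read at depth, are shown so that each value below can be tied to its molecule, with the tags of a construct lettered in alphabetical order.
ChIPCRM5792-D7 tag a: actctcggaagtctccccta
ChIPCRM5792-D7 tag b: tctaaaggaacttgatcttg
ChIPCRM5792-71 tag a: acgggattattgaataagcg
ChIPCRM5792-71 tag b: atagtttaaacagtgataag
ChIPCRM5792-71 tag c: cttaatttctatttgtaaaa
ChIPCRM5792-71 tag d: gataggaaatgaggagtaaa
ChIPCRM5792-7 tag a: aaatagacggtaaacttaca
ChIPCRM5792-7 tag b: tcgggaaataaacacatgct
ChIPCRM5792-7 tag c: tgcgctaggggttaaacata
ChIPCRM5792-WT tag a: ccacgaaaacgatcgagttc

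Enhancer activity is the share of a tag in the RNA library divided by its share in the DNA library of the same collection, both counted as unique molecular identifiers (UMIs), so that 1 means as much RNA as the average reporter molecule of the pool. A tag in 1 collection counts as 1 observation if it had at least 65 DNA UMIs, and a construct was compared if it had at least 4 observations. This left 18 tags of 6 mutant constructs in each population. The libraries held 813922 to 1366066 RNA UMIs and 317396 to 621449 DNA UMIs in twi:CD2+ cells, and 560294 to 1201998 RNA UMIs and 54038 to 248151 DNA UMIs in mef2:CD2- cells. The ChIPCRM5792 tags together took 12.3 to 13.0% of the RNA UMIs and 8.72 to 8.95% of the DNA UMIs in twi:CD2+ cells, and 12.7 to 15.4% of the RNA UMIs and 8.92 to 10.3% of the DNA UMIs in mef2:CD2- cells. Among the observations used, the median was 1845 DNA UMIs in twi:CD2+ and 437 in mef2:CD2- cells. The counting error of 1 observation had a median SD of 0.04 on the log2 scale in twi:CD2+ and of 0.07 in mef2:CD2- cells, and it covers the counting of UMIs only.

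The wildtype ChIPCRM5792 enhancer could be measured only once at this depth. Its tag a had 1317 RNA UMIs and 607 DNA UMIs in twi:CD2+ collection 1, an activity of 0.987 with a 95% exact interval of 0.896 to 1.09 for counting error. In twi:CD2+ collection 3 the same tag had 392 RNA UMIs over 54 DNA UMIs, a ratio of 4.20 with an interval of 3.16 to 5.70, and in collection 2 it had 591 RNA UMIs over only 4 DNA UMIs. The mef2:CD2- collections 1, 2 and 3 gave ratios of 1.5, 2.46 and 0.824 over 53, 34 and 24 DNA UMIs. The wildtype ratios thus differed between collections by more than their counting error. Tag a was absent from mef2:CD2- collections 4 and 6, and collection 5 had 1366 RNA UMIs over 1 DNA UMI. The other wildtype tags never exceeded 15 RNA UMIs or 5 DNA UMIs in a library. No mutant was set against the wildtype, and the comparisons below are between mutants that differ by 1 motif. Each construct also carries its own barcode of 8 bases at both ends of the enhancer, so compared mutants differ in their barcodes as well. The study chose barcodes meant to limit new binding sites, and their effect was not tested here.

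All 6 mutants compared drove reporter RNA above the average of the pool in both populations. In twi:CD2+ cells the mean activity was 1.86 ± 1.32 for ChIPCRM5792-1 (SD, n = 9 observations), 1.85 ± 0.47 for ChIPCRM5792-7 (n = 9) and 1.72 ± 1.36 for ChIPCRM5792-D7 (n = 6). It was 1.53 ± 0.97 for ChIPCRM5792-D1 (n = 12), 1.39 ± 0.42 for ChIPCRM5792-71 (n = 8) and 1.36 ± 0.59 for the triple site mutant ChIPCRM5792-D71 (n = 9). These neighbouring means lie well within the SD of each construct, and the 6 constructs ranked between 13 and 26 of 86 constructs by mean activity.

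In mef2:CD2- cells the order was led by ChIPCRM5792-7 at 2.55 ± 1.1 (SD, n = 18), followed by ChIPCRM5792-1 at 2.12 ± 1.5 (n = 16) and ChIPCRM5792-71 at 1.64 ± 0.97 (n = 19). ChIPCRM5792-D1 had 1.52 ± 0.53 (n = 23), ChIPCRM5792-D71 had 1.31 ± 0.76 (n = 12) and ChIPCRM5792-D7 had 1.30 ± 0.33 (n = 12). By these means the 3 constructs without Deaf1 sites ranked 14 to 18 of 91 constructs and the 3 with Deaf1 sites intact ranked 9 to 12. The order of the neighbours ChIPCRM5792-D1 and ChIPCRM5792-71 was not stable, since their medians were 1.52 and 1.43, and without replicate 6 their means were 1.49 and 1.41. Across all collections the activity of single tags used here ran between 0.534 and 4.43 in twi:CD2+ cells, where 44 of 54 observations (1 of them wildtype) were above 1, and between 0.00610 and 6.88 in mef2:CD2- cells, where 81 of 100 were above 1.

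The lowest mutant of ChIPCRM5792 was more active than the lowest version of each of the other 11 enhancers in both populations. The least active ChIPCRM5792 mutant averaged 1.36 in twi:CD2+ and 1.30 in mef2:CD2- cells, whereas the least active version of the others lay between 0.0181 and 1.06 in twi:CD2+ and between 0.0150 and 0.989 in mef2:CD2- cells. The most active ChIPCRM5792 mutant was 1.37 times the least active one in twi:CD2+ cells, the narrowest span of the 12 enhancers, and 1.96 times in mef2:CD2- cells, the fourth narrowest. The span of the other enhancers was 1.84 to 437 times in twi:CD2+ and 1.26 to 314 times in mef2:CD2- cells. Neither the wildtype nor the Deaf1 single site mutant is part of the ChIPCRM5792 span or of its lowest value. The only wildtype observation with enough DNA, 0.987 in twi:CD2+ cells, lay below the 1.06 of the other enhancers. These ranks are descriptions without a test.

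The constructs were first compared as a series with a Kruskal-Wallis statistic and 100000 permutations of the observations. In twi:CD2+ cells the 53 observations of the 6 constructs gave a permutation p of 0.397, and 0.427 after Benjamini-Hochberg adjustment over the 14 series of related constructs. In mef2:CD2- cells the 100 observations gave a permutation p of 0.000490 and an adjusted p of 0.000686. A tag that returned in several collections counts as independent in these p-values. The study also counted tags in this way, but it tested each week separately. Here the mef2:CD2- collections of week 1 and week 2 entered the same test, so a tag could count up to 6 times. This pooling goes beyond the scheme of the study, and results for each week alone are given below. Of all series, 71.4% passed an adjusted p of 0.1 in twi:CD2+ and 78.6% in mef2:CD2- cells.

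In mef2:CD2- cells, the mean activity of ChIPCRM5792-D7, which lacks Deaf1 and ZIPIC sites, was 0.509 times that of ChIPCRM5792-7, which lacks ZIPIC sites only. The comparison rests on 2 tags against 3, each counted in 6 collections. ChIPCRM5792-D7 had a lowest activity of 0.979, a median of 1.18 and a highest of 2.09, against a lowest of 0.00610, a median of 2.72 and a highest of 4.78 for ChIPCRM5792-7. The means of the collections, given for replicates 1 to 6, were 1.02, 1.36, 1.21, 1.60, 1.55 and 1.06 for ChIPCRM5792-D7 and 2.65, 2.79, 1.51, 3.69, 3.51 and 1.16 for ChIPCRM5792-7. The double site mutant was lower in 6 of 6 collections, although the collection means of the 2 constructs overlapped, since replicates 3 and 6 of ChIPCRM5792-7 lay within the range of ChIPCRM5792-D7. Over all its collections, the mean activity was 1.27 for tag a and 1.33 for tag b of ChIPCRM5792-D7, against 2.49, 2.43 and 2.74 for tags a, b and c of ChIPCRM5792-7.

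The difference between ChIPCRM5792-D7 and ChIPCRM5792-7 gave p = 0.000193 in a two-sided exact permutation test of mean ranks, and 0.000859 after adjustment over the 116 one-motif pairs of all enhancers. It was 1 of 2 called pairs among the 7 of this enhancer, where 37.9% of all pairs were called and 26.7% were called as a decrease. The call was lost within week 2 alone, where the fold was 0.503 with an adjusted p of 0.107, whereas week 1 alone gave 0.517 with an adjusted p of 0.00331. With the mean log2 activity of each tag as the unit, the fold was 0.699 with an adjusted p of 0.769, or 0.497 with an adjusted p of 0.357 without the single low observation described below, and 2 tags against 3 cannot give an exact p below 0.2.

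In the same cells, ChIPCRM5792-71, which also lacks the CG12236-PB sites, was less active than ChIPCRM5792-7 when observations were counted as independent. The comparison rests on 4 tags against 3, and the next paragraph gives its limits. ChIPCRM5792-71 had a lowest activity of 0.796, a median of 1.43 and a highest of 4.86, and its mean was 0.643 times that of ChIPCRM5792-7. The collection means for replicates 1 to 6 were 1.67, 0.909, 1.22, 1.98, 1.37 and 2.51 for ChIPCRM5792-71. They were below those of ChIPCRM5792-7 in 5 of 6 collections, and above in replicate 6. The exact permutation test gave p = 0.00351 and an adjusted p of 0.0120.

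The tags of ChIPCRM5792-71 were not alike in these cells. Tag a, the rarest, had activities of 2.79 and 4.86 in the only 2 collections in which it had enough DNA, while tags b, c and d averaged 1.12 ± 0.34 (SD, n = 6), 1.21 ± 0.28 (n = 5) and 1.80 ± 0.57 (n = 6). Without tag a the fold was 0.542 with an adjusted p of 0.00214. Without tag b it was 0.737 and no longer called, with an adjusted p of 0.106, and without collection 2 it was 0.71 with an adjusted p of 0.117. Within week 1 the fold was 0.565 with an adjusted p of 0.0114, against 0.721 and 0.470 within week 2. With tags as the unit it was 0.928 and not called, or 0.660 with an adjusted p of 0.571 without the low observation of ChIPCRM5792-7. With 4 tags against 3, the exact permutation test allows a p of 0.0571 at the lowest.

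One observation of ChIPCRM5792-7 in mef2:CD2- cells stood apart, and it pulled toward a smaller difference. In replicate 6 its tag b had 7 RNA UMIs over 237 DNA UMIs, an activity of 0.00610, whereas the same tag had 1.57 to 3.65 in the other 5 collections. Its 237 DNA UMIs came with 1.27 reads each, against a median of 90.7 reads per UMI among the tags used in that library, and its RNA UMIs came with 1.00 read each. Among the 2046 observations of all constructs that passed the DNA minimum, 3 had under 2 reads per DNA UMI, all 3 in this same library. Without this observation, ChIPCRM5792-D7 stood at 0.481 of ChIPCRM5792-7 with an adjusted p of 4.19e-05, and ChIPCRM5792-71 at 0.607 with an adjusted p of 0.00185.

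The other 5 pairs in mef2:CD2- cells did not pass the test, with adjusted p between 0.215 and 0.907. Loss of the Deaf1 sites gave a mean activity of 1.52 ± 0.53 in ChIPCRM5792-D1, against 2.12 ± 1.5 in ChIPCRM5792-1, a fold of 0.719 that was below 1 in 4 of 6 collections. The medians of these constructs were closer than the means, at 1.52 for ChIPCRM5792-D1 and 1.82 for ChIPCRM5792-1, whose tag c alone ran between 0.616 and 6.88. Loss of the Deaf1 sites from ChIPCRM5792-71 gave a fold of 0.801, with ChIPCRM5792-D71 lower in 4 of 6 collections.

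Loss of the ZIPIC sites was examined on 2 backgrounds. ChIPCRM5792-71 had 0.776 times the activity of ChIPCRM5792-1 and was lower in 5 of 6 collections, with an adjusted p of 0.468. ChIPCRM5792-D71 had 0.864 times the activity of ChIPCRM5792-D1, lower in 4 of 6 collections, with an adjusted p of 0.215. This pair crossed the threshold of the exact permutation test in week 1 alone, at a fold of 0.699 with an adjusted p of 0.0620. It also did so without collection 5, at 0.769 with an adjusted p of 0.0310. Without tag b of ChIPCRM5792-D71, which leaves tag c alone for that construct, it crossed at 0.734 with an adjusted p of 0.0771. In week 2 alone, however, the fold of this pair was 1.06.

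Loss of the CG12236-PB sites from ChIPCRM5792-D7 left the mean nearly unchanged, at 1.31 ± 0.76 in ChIPCRM5792-D71 against 1.30 ± 0.33 in ChIPCRM5792-D7. The ratio of the collection means nonetheless varied widely, between -1.23 and 1.15 on the log2 scale. Tag b of ChIPCRM5792-D71 was behind both ends, with an activity of 0.313 over 2140 DNA UMIs in replicate 4 and of 3.46 over 307 DNA UMIs in replicate 6, while its RNA UMIs were 3366 and 5150. Tag c of the same construct kept between 0.928 and 1.31 in all 6 collections.

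In twi:CD2+ cells none of the 7 one-motif pairs of ChIPCRM5792 was called by the exact permutation test, with adjusted p between 0.201 and 0.914, and none had an unadjusted p under 0.05. Among the 102 pairs of all enhancers in these cells, 24.5% were called, 16.7% as a decrease and 7.84% as an increase. Tests by Conover-Iman t statistics and by permutation within collections also called 0 of the 7. Adjustment within the enhancer alone was applied only at a Kruskal-Wallis p under 0.1. That permutation p was 0.397 in these cells, so this adjustment could call none. All 7 folds were below 1, as were 64 of the 102 folds of all enhancers, but the 7 pairs share 6 constructs and are not independent.

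The difference with the lowest p in twi:CD2+ cells was that of ChIPCRM5792-71 against ChIPCRM5792-7, the pair in which the CG12236-PB sites are lost. The collection means for replicates 1 to 3 were 1.55, 1.56 and 0.873 for ChIPCRM5792-71 and 1.76, 2.12 and 1.66 for ChIPCRM5792-7, lower in the double site mutant in 3 of 3 collections and without overlap between the constructs. The fold was 0.750, with an exact permutation p of 0.0630 and an adjusted p of 0.201. ChIPCRM5792-D7 against ChIPCRM5792-7, the pair with the strongest call in mef2:CD2- cells, had collection means of 1.33, 1.17 and 2.66 for ChIPCRM5792-D7 against the values just given for ChIPCRM5792-7. The double site mutant was lower in 2 of 3 collections, at a fold of 0.932 with an adjusted p of 0.294.

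A single tag set the level of ChIPCRM5792-D7 in twi:CD2+ cells. Its tag b had activities of 1.06, 0.908 and 4.43, the last over 235 DNA UMIs where the other collections had 2341 and 2440, and its tag a had 1.61, 1.43 and 0.903. Both tags were most active in the collection in which they had the fewest DNA UMIs, which enter the activity as its denominator. The remaining folds in twi:CD2+ cells were 0.824 for ChIPCRM5792-D1 against ChIPCRM5792-1 and 0.982 for ChIPCRM5792-D71 against ChIPCRM5792-71. They were 0.745 for ChIPCRM5792-71 against ChIPCRM5792-1, 0.889 for ChIPCRM5792-D71 against ChIPCRM5792-D1 and 0.791 for ChIPCRM5792-D71 against ChIPCRM5792-D7. Each of these 5 pairs was lower in 2 of 3 collections and higher in the other.

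The effect of each motif was next averaged over its backgrounds within each collection, as the mean log2 ratio of mutant to reference. In twi:CD2+ cells the effect of the Deaf1 sites was 0.05, -0.70 and 0.28 in replicates 1 to 3, with a mean of -0.12 ± 0.51 (SD, n = 3). The effect of the CG12236-PB sites was -0.13, -0.21 and -0.81, with a mean of -0.39 ± 0.37. The effect of the ZIPIC sites was -0.13, -0.51 and -0.25, with a mean of -0.30 ± 0.19, below 0 in 3 of 3 collections, but 0.21 when the UMIs of a construct were summed before the ratio was taken. With 3 collections the exact sign-flip test cannot give a p below 0.25, so none of these could be called.

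In mef2:CD2- cells the effect of the Deaf1 sites had a lowest of -1.08, a highest of 0.02 and a mean of -0.52 ± 0.43 (SD, n = 6) on the log2 scale, below 0 in 5 of 6 collections. The exact sign-flip test gave p = 0.0625 and an adjusted p of 0.118, against 47.2% of 36 motif effects called over all enhancers. From summed UMIs the effect was -0.39 and from read counts -0.52, and both passed the threshold with an adjusted p of 0.0662. The mean effect of the CG12236-PB sites was -0.34 ± 0.80, also below 0 in 5 of 6 collections. The exception was 1.13 in replicate 6, the collection of the low observation of ChIPCRM5792-7. The mean CG12236-PB effect was -0.64 with an adjusted p of 0.118 in the exact test without replicate 6, -0.23 without replicate 2 and -0.20 without replicate 4. With 5 collections the exact sign-flip test cannot give a p below 0.0625, and without replicate 6 all 5 values were below 0. The ZIPIC sites had a mean effect of -0.31 ± 0.44, below 0 in 4 of 6 collections, and of -0.18 without replicate 4. Neither was called, with exact p of 0.312 and 0.219 and adjusted p of 0.417 and 0.303.

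Whether 2 motifs act independently was tested on the log2 scale, where 0 means that the effects of both losses multiply. For the Deaf1 and CG12236-PB sites on the ChIPCRM5792-7 background, the interaction was 0.25 ± 0.41 (SE) in twi:CD2+ cells, with an adjusted permutation p of 0.688, and 0.18 ± 0.67 in mef2:CD2- cells, with an adjusted p of 0.994. For the Deaf1 and ZIPIC sites on the ChIPCRM5792-1 background it was 0.08 ± 0.48 in twi:CD2+ and -0.01 ± 0.36 in mef2:CD2- cells, with adjusted p of 0.916 and 0.994. The background was 25% of 36 interactions called in twi:CD2+ and 36.2% of 47 in mef2:CD2- cells.

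The interaction of the Deaf1 and CG12236-PB sites in mef2:CD2- cells depended on 1 collection. Without replicate 6 it was 0.68 with an adjusted p of 0.0859, which passes the threshold, and without only the low observation of ChIPCRM5792-7 in that replicate it was 0.66 with an adjusted p of 0.112. Week 1 alone gave 0.76 with an adjusted p of 0.0698 and week 2 alone gave -0.43 with an adjusted p of 0.923. A value above 0 means that the triple site mutant was more active than the product of both single losses, and the mean of ChIPCRM5792-D71 was 1.01 times that of ChIPCRM5792-D7.

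The activity of each ChIPCRM5792 mutant was finally compared between twi:CD2+ and mef2:CD2- cells with edgeR's quasi-likelihood test on UMIs summed over the tags of a construct. None of the 6 was called at an adjusted p of 0.05, against 3.33% of 90 constructs, 1 had an unadjusted p under 0.05, and DESeq2 also called 0 of the 6. The triple site mutant ChIPCRM5792-D71 had the lowest p, with a log2 ratio of 0.54 ± 0.24 (SE) for twi:CD2+ over mef2:CD2- cells and an adjusted p of 0.176 in edgeR. Read counts in place of UMIs moved this ratio to 0.81 with an adjusted p of 0.0604. Tag c of this construct had 23170 to 33955 RNA UMIs in twi:CD2+ cells, and the highest of these is 51.8% of the 65536 sequences that 8 bases can form.

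The other 5 mutants had log2 ratios below 0, between -0.47 ± 0.29 for ChIPCRM5792-7 and -0.14 ± 0.23 for ChIPCRM5792-D7, with adjusted p between 0.377 and 0.856. The mean over observations did not follow the summed UMIs for every construct. ChIPCRM5792-D7 had mean activities of 1.72 in twi:CD2+ and 1.30 in mef2:CD2- cells although its ratio from summed UMIs was below 0. ChIPCRM5792-D1 had 1.53 in twi:CD2+ and 1.52 in mef2:CD2- cells beside a ratio of -0.35 ± 0.25. The triple site mutant ChIPCRM5792-D71 had nearly equal means, 1.36 in twi:CD2+ and 1.31 in mef2:CD2- cells, beside its log2 ratio of 0.54.

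The motif effects themselves were also set between the populations, with the collections as units. The Deaf1 effect was -0.12 in twi:CD2+ and -0.52 in mef2:CD2- cells, a difference of 0.40 with p = 0.214 in a two-sided exact permutation test whose smallest p is 0.0119. The CG12236-PB effect differed by -0.04 and the ZIPIC effect by 0.01, each with an exact p of 0.940, and the adjusted p over 36 effects was 0.980 for all 3 motifs. No averaged motif effect is therefore shown to differ between the populations, and the called pairs were not compared between them. The 2 populations were sorted from different crosses in different weeks and from separate parental flies, and these cannot be told apart from the cell population.

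Within a collection, sister tags of a construct differed by a median of 1.55 times in twi:CD2+ cells, over 55 pairs of ChIPCRM5792 tags, and by 1.42 times in mef2:CD2- cells, over 99 pairs. The medians of the other 11 enhancers ran between 1.47 and 2.47 times in twi:CD2+ and between 1.37 and 2.44 times in mef2:CD2- cells, so that ChIPCRM5792 lay near the low end in both. The same tag in different collections differed by a median of 1.56 times in twi:CD2+ and 1.40 times in mef2:CD2- cells. Both are far above the counting error of an observation.

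In twi:CD2+ cells the DNA shares of ChIPCRM5792 tags moved more than their RNA shares. Across the 3 collections the median SD of the log2 share was 0.36 for RNA and 0.62 for DNA over 17 tags, and the DNA share varied more in 14 of the 17. In mef2:CD2- cells the medians were 0.48 for RNA and 0.60 for DNA over the 14 tags seen in all 6 collections, and the DNA share varied more in 7 of them. The tags of the other enhancers had medians of 0.55 for RNA and 0.62 for DNA in twi:CD2+ and of 0.65 and 0.57 in mef2:CD2- cells. Among them the DNA share varied more in 106 of 195 tags in twi:CD2+ and in 65 of 165 tags in mef2:CD2- cells. The part of this DNA variation in the differences between mutants was not tested.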

How the data were processed

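The authors deposited 1 table per library with raw UMI counts and raw read counts per tag, without normalization. According to the study's methods and the submitters' processing notes, constant regions were trimmed with cutadapt 1.14 and tags were aligned with Bowtie, with the first 8 bases of a read as UMI and R 3.5.1 for statistics. These steps could not be varied. The enhancer and site mutant sequences were read from a text copy of a supplementary table of the study, and it is this copy that shortens each sequence.

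From the counts, activity per tag and collection was computed as the ratio of the RNA share to the DNA share of UMIs, with Python 3.11.15, pandas 2.3.3, scipy 1.17.1 and numpy 2.4.6. Collections were named by replicate in order of the dates in the labels, which tie each RNA library to its DNA library. Within a collection, deviations of RNA and DNA shares from the tag means correlated at 0.287 to 0.418 in twi:CD2+ cells and 0.448 to 0.536 in mef2:CD2- cells, and the collection was a block in the edgeR fit. Constructs were compared by a Kruskal-Wallis statistic with 100000 permutations, pairs by a two-sided exact permutation test of mean ranks, motif effects by an exact sign-flip test and interactions by permuted residuals, with Benjamini-Hochberg adjustment across the enhancers and a threshold of 0.1. Populations were compared in edgeR 4.0.16 with limma 3.58.1 and R 4.3.3, at 0.05, for constructs whose summed count reached 10 in all libraries, and in DESeq2 1.42.0. Intervals are exact 95% intervals for counting error only. Each set of triplicate collections came, per the study, from a separate population of parental flies, so p-values cover these few populations only. The Kruskal-Wallis, pair and interaction tests permuted observations as if independent, so they do not separate the spread between tags from that between collections. The motif effect tests used collections as units. The exact pair test, the Kruskal-Wallis test, an interaction and the edgeR test were run on simulated data. For motif effects only the estimates were checked there, not the p-values. The simulated observations were independent, so the return of a tag in several collections was not part of this check. Alternatives were reads in place of UMIs, other DNA minimums, summed UMIs, other tests and units, each week alone, and each collection or tag left out. A correction for UMI collisions and the removal of the lowest observation of ChIPCRM5792-7, also with tags as units, were added after seeing the data. Every construct and every one-motif pair with at least 4 observations each was named, and the members, the comparisons and the tests were chosen with earlier results of these data known.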

Additional observations from a re-analysis of the deposited data

Results flagged for a closer look

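Of 33 groups of 4 to 10 values examined, 3 held 1 value far from the rest, where chance gives about 1 in 20. Tag b of ChIPCRM5792-7 in mef2:CD2- cells had an activity of 0.00610 in replicate 6, far below its other 5 collections. Tag b of ChIPCRM5792-D1 in mef2:CD2- cells had 0.477 in replicate 5, over 867 DNA UMIs, against 1.52 to 2.35 in the other 4 collections used. The log2 ratio of ChIPCRM5792-71 to ChIPCRM5792-1 in mef2:CD2- cells was 0.28 in replicate 3 and between -0.53 and -0.38 in the other 5 collections.

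Some observations that were left out for too little DNA had ratios whose counting interval lay above the highest activity used in the same population. Tag a of the wildtype enhancer had 38.0 in twi:CD2+ replicate 2, with 591 RNA UMIs over 4 DNA UMIs and an interval of 14.8 to 139.9. The same tag had 197 in mef2:CD2- replicate 5, with 1366 RNA UMIs over 1 DNA UMI and an interval that starts at 35.3. Tag a of ChIPCRM5792-71 had 56.7 in mef2:CD2- replicate 5, with 1964 RNA UMIs over 5 DNA UMIs and an interval of 24.3 to 174.8. The RNA of these tags was thus read at depth in collections in which their DNA was almost absent, and the cause was not tested.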

How the results depend on the processing

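Of the alternative values, 828 kept their direction and side of the threshold, or moved within the spread, and 40 changed sign, none of them a called difference. A further 9 lost the threshold, 7 crossed it and 5 were counts of called pairs that moved. Of the 9, 5 belonged to ChIPCRM5792-71 and 3 to ChIPCRM5792-D7, each against ChIPCRM5792-7 in mef2:CD2- cells. The values here are log2 ratios or log2 interactions. With read counts, ChIPCRM5792-D71 in twi:CD2+ cells was 0.34 against ChIPCRM5792-71 and 0.11 against ChIPCRM5792-D1, the Deaf1 effect in mef2:CD2- cells was -0.52 and called, and the interaction of Deaf1 and ZIPIC there was 0.11. The collision correction gave 0.11 for ChIPCRM5792-D71 against ChIPCRM5792-71 in twi:CD2+ cells and 0.10 for that interaction. Summed UMIs gave 0.21 for the ZIPIC effect in twi:CD2+ cells and -0.39, called, for the Deaf1 effect in mef2:CD2- cells.

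Within mef2:CD2- cells, week 1 alone gave -0.093 for ChIPCRM5792-D71 against ChIPCRM5792-D7 and a called Deaf1 and CG12236-PB interaction of 0.76. Week 2 alone called 0 pairs, with an adjusted permutation p of 0.101 for the whole set of constructs, 0.079 for ChIPCRM5792-D71 against ChIPCRM5792-D1, -0.43 for the interaction of Deaf1 and CG12236-PB and 0.24 for that of Deaf1 and ZIPIC. Tag means as units called 0 pairs, and gave -0.14 for ChIPCRM5792-D71 against ChIPCRM5792-D7 and -0.031 for the interaction of Deaf1 and CG12236-PB. Without the low observation of ChIPCRM5792-7 tag means still called 0 pairs and gave -0.14 for ChIPCRM5792-D71 against ChIPCRM5792-D7, and that interaction was 0.46. With the collection as a replicate block, both called pairs were kept and the interaction of Deaf1 and ZIPIC was 0.0077.

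Leaving out 1 collection or 1 tag called 1 to 3 pairs in mef2:CD2- cells. In twi:CD2+ cells it gave -0.81 to 0.078 for ChIPCRM5792-D1 against ChIPCRM5792-1, -0.63 to 0.22 for ChIPCRM5792-D7 against ChIPCRM5792-7, -0.36 to 0.19 for ChIPCRM5792-D71 against ChIPCRM5792-71 and -0.53 to 0.16 for ChIPCRM5792-D71 against ChIPCRM5792-D1. The Deaf1 effect there was -0.33 to 0.16 and the Deaf1 and ZIPIC interaction -0.32 to 0.64. In mef2:CD2- cells it gave -0.28 to 0.22 for ChIPCRM5792-D71 against ChIPCRM5792-D7, -0.055 to 0.68 for the Deaf1 and CG12236-PB interaction and -0.32 to 0.23 for that of Deaf1 and ZIPIC. ChIPCRM5792-71 between twi:CD2+ and mef2:CD2- cells was -0.31 to 0.067. The causes were not tested. The depth limits the wildtype most, which had 65 DNA UMIs or more in 1 collection alone.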
